A study of Mus musculus with 16 samples.

Results

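Hepatic stellate cells lie between hepatocytes and the sinusoidal wall, store vitamin A and are the liver's main source of extracellular matrix. Measured here were 46 stellate cell and matrix genes, taken by symbol from the 24010 entries of the table of this study, and all 46 were present. They encode collagens, basement membrane proteins, small proteoglycans and glycoproteins, elastic fibre proteins, matrix proteases and their inhibitors, contractile markers, growth factors with their receptors, and other stellate cell products. Whole liver RNA came from 16 C57BL/6 mice in 4 groups of 4: 5-month-old (young) and 23-month-old (old) mice, each injected with either an empty EEV plasmid (control) or an EEV plasmid coding human MANF, a secreted protein of the endoplasmic reticulum stress response. All 16 mice had received a hydrodynamic injection, in which plasmid is pushed into liver cells by quickly infusing much fluid through a tail vein, 5 weeks before the tissue was taken; mice without an injection were not analysed here. The labels give 1 strain, no sex and no cell type that took up the plasmid, and the RNA made from the human sequence was not analysed here. Values are RPKM, reads scaled to gene length and library size, so levels can be set beside each other between genes.

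In a healthy liver, quiescent stellate cells hold retinyl esters and make little fibrillar collagen. After injury they can become contractile, express alpha smooth muscle actin and secrete collagens, proteoglycans and protease inhibitors, with transforming growth factor beta and platelet-derived growth factor as the best known stimuli. Matrix turnover depends on the balance between matrix metalloproteinases and the tissue inhibitors of metalloproteinases (TIMPs). Old livers are known to hold more immune cells, and the sinusoidal wall of old animals gains basement membrane.

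The promoters of 4 members are printed because these genes were among the 16 members whose level was higher in old than in young mice after the MANF plasmid, given below. RefSeq windows of 250 upstream bases (GRCm38.p6) were found for 31 of the 46 members, in 36 windows. Of the 16 genes, 9 had a window, and the 4 printed are those whose window held no annotated exon; this choice, like the choice of motifs, was made after values had been seen. Each sequence is the strand of the gene, ends at the base before the transcription start, and has in capitals the matches, on either strand, to the TATA box with the letters TATAAA, to the element known as the CCAAT box, to the GC box with the letters GGGCGG, to the core of the Smad-binding element with the letters CAGAC, and to the CArG box.
Col6a3, chr1:90843972-90844221, minus strand: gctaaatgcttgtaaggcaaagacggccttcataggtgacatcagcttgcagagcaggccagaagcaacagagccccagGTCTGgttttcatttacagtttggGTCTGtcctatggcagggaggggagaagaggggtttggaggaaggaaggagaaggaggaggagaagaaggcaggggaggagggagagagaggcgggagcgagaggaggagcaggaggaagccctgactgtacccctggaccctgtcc
Reln, chr5:22344706-22344955, minus strand: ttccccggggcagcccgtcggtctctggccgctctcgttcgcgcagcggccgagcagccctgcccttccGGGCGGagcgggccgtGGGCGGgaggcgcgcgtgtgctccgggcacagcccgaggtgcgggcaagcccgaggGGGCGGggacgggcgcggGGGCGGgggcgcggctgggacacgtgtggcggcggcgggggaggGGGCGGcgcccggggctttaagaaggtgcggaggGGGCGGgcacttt
Pdgfra, chr5:75152001-75152250, plus strand: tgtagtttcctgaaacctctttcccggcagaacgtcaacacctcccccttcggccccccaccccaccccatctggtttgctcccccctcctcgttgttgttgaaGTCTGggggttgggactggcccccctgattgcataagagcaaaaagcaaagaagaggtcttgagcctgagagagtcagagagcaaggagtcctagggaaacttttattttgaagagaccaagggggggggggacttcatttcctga
Bgn, chrX:73483351-73483600, plus strand: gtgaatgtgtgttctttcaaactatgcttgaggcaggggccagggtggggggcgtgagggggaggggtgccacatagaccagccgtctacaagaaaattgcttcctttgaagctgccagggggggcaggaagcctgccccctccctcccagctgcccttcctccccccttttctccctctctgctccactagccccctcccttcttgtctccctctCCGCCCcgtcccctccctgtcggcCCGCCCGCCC
Reln held 6 GC boxes, at positions from -181 to -13 counted from the start site, and Bgn held 3, at -34, -10 and -6, of which the last 2 share bases. Col6a3 held 2 matches to CAGAC, at -171 and -147, and Pdgfra 1, at -146. None of the 4 windows held a match to the TATA box, to the CCAAT element or to the CArG box. Over all 36 member windows a GC box was present in 55.6%, against 32.7% of all 32841 windows, and CAGAC in 55.6% against 42.2%. CCAAT was in 30.6% against 33.9%, TATAAA in 5.6% against 12.4%, and the CArG box in 2.8% against 1.5%. These matches describe letters in a window and nothing about binding.

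By the reads recovered from the RPKM values, the libraries were scaled to totals of 18310000 to 26120000 reads, so 1 RPKM in a transcript of 1 kilobase stood for 18.3 to 26.1 reads. Hepatocyte markers summed to between 29827 and 47208 RPKM per library over 8 genes, while 5 skeletal muscle markers stayed below 0.85 RPKM in sum and 4 exocrine pancreas markers below 0.07. Of the 46 members, 39 reached 0.5 RPKM in at least 4 libraries and were tested; the 7 below that were Fbln1, Fbn1, Eln, Lama2, Lox, Loxl1 and Thbs1. Col5a1, Col5a2, Col6a2, Timp1, Mmp2 and Pdgfra reached that level only with the help of the old MANF libraries, so a difference of that group from the others was built into their being tested. In whole tissue, fewer cells of a type and less RNA per cell cannot be told apart.

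Old control replicate 4 stood apart from the other libraries and is named wherever a result rests on it. Its root mean square distance from the other 3 libraries of its group was 0.553 on the log2 scale over all tested genes, against 0.241 to 0.369 for the others except young MANF replicate 3, at 0.472. Old control replicate 4 was the highest of its group for 34 of the 39 tested members, by a median of 0.76 (log2) over the mean of the other 3, whereas it was the highest for 53.1% of all tested genes, by a median of 0.13. The summed level of 11 Kupffer cell markers was 739 RPKM in that library and 134 to 201 in the other 3, that of 7 recruited macrophage markers was 397 against 40.7 to 60.7, and that of 9 cholangiocyte markers was 70.7 against 14.2 to 16.4. A separate list of 24 other stellate cell markers summed to 242 RPKM there and to 125 to 141 in the other 3. The part of these cell types in the member levels was not tested.

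Summed over all 46 members, young livers held 308 ± 36.7 RPKM (SD, n = 4) with the control plasmid and 288 ± 19.0 with MANF, and old livers 337 ± 52.8 with the control plasmid and 424 ± 46.2 with MANF. The old MANF sums, 389 to 492 RPKM, overlapped those of the old controls through old control replicate 4, at 413; the other 3 old controls lay at 301 to 331. By group mean, old MANF was the highest group for 42 of the 46 members and young MANF the lowest for 37. Without old control replicate 4 these counts were 44 and 26, and old control was then the lowest for 15. The order of the groups was not counted over all genes, but the whole table leaned the same way. Of all 10677 tested genes, 8434 were higher in old MANF than in young MANF and 6314 higher in old MANF than in old control. Only 3426 were higher in young MANF than in young control. Fn1, which encodes the adhesion glycoprotein fibronectin and is also made by hepatocytes, and Col18a1, the precursor of endostatin, had the highest levels of the members, 82.8 and 72.8 RPKM on average over the 16 libraries, and together gave 45.9% of the members' sum.

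**Figure D1:**
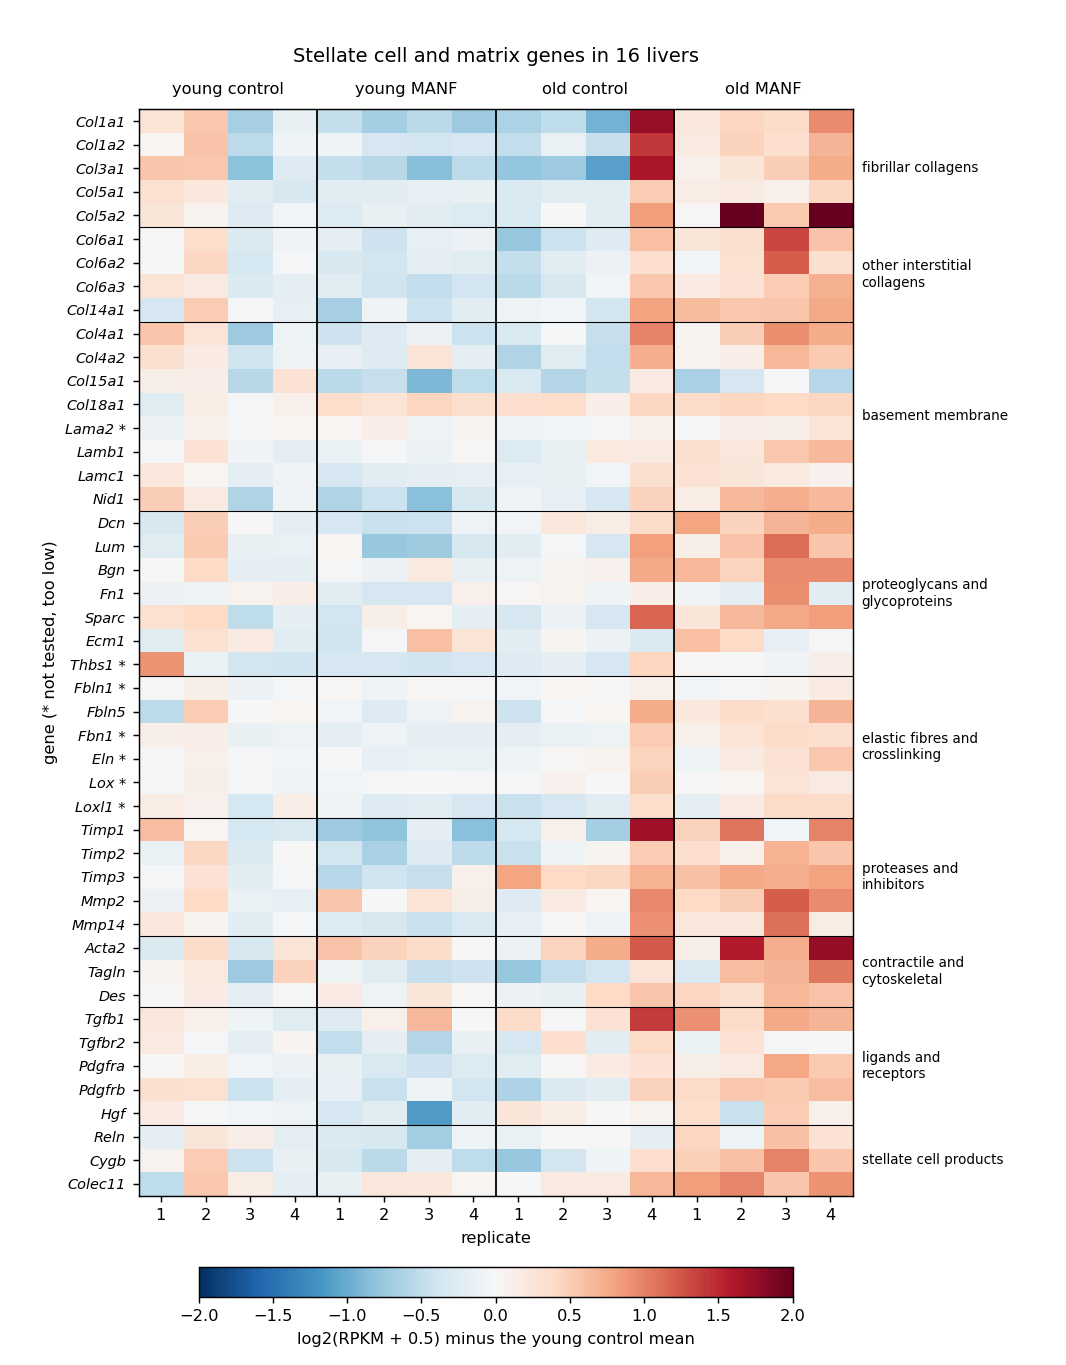
Level of each of the 46 members (rows, grouped by role) in each of the 16 libraries (columns, replicates 1 to 4 of each group), as log2(RPKM + 0.5) minus the young control mean of the same gene; stars mark the 7 members too low to test. Old control replicate 4 and the 4 old MANF columns carry most of the red cells, and the young MANF columns most of the blue ones.

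The age comparison after the MANF plasmid gave the clearest differences. Of the 33 members that reached the level for testing without the old MANF libraries, 14 rose in old MANF compared with young MANF livers and none fell, at an adjusted p below 0.05; among the 10335 genes that reached it in the same way, 5.61% rose. Each of the 33 members lay above 0, with a median log2 change of 0.73, beside a median of 0.18 over those genes. In 23 of the 33 members all 4 old MANF libraries lay above all 4 young MANF libraries, which is 69.7%, against 21.1% of those genes. With the 6 members that needed the old MANF libraries, which include the called genes Col5a2 and Pdgfra, the counts were 16 called of 39 (5.85% of all 10677 tested genes rose) and 28 without overlap (22.3%). The count of 16 depended on single libraries. It was 7, 6 and 6 without young MANF replicates 1, 2 and 3, and 9, 9, 6 and 4 without old MANF replicates 1, 2, 3 and 4. The number of all genes that rose fell in the same runs as well. From 625 of 10677 it became 170, 225 and 189, and 193, 169, 276 and 168, of 10603 to 10662 tested. The member count was 26 without old control replicate 4, which belongs to neither group but adds to the spread shared by the fit. That stood beside 15.4% of all tested genes, and 21 of the 26 reached the level for testing without old MANF. Timp3, Dcn, Nid1 and Cygb passed the threshold in every run that left out a library and under every other setting tried. By the GENCODE annotation of GRCm38, Timp3 lies at chr10:86300372-86349506, Nid1 at chr13:13437551-13512269 and Cygb at chr11:116645595-116654313; all 46 members are protein coding.

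The small proteoglycans carried some of the clearest differences. Decorin (Dcn), which binds collagen fibrils and sequesters transforming growth factor beta, was at 45.9, 42.6, 43.1 and 54.3 RPKM in the young MANF livers and 101, 80.8, 93.9 and 98.5 in the old MANF livers. The groups were far from overlapping, and the change was 1.0 ± 0.15 (log2, SE; adjusted p = 0.00288). Biglycan (Bgn), its close relative, was at 9.22, 8.68, 11 and 8.53 RPKM in young and 15.4, 13, 18.7 and 18.7 in old MANF livers, again without overlap, a change of 0.77 ± 0.18 (log2, SE; adjusted p = 0.0265). Lumican (Lum), which spaces collagen fibrils, was at 3.21, 1.63, 1.72 and 2.4 RPKM against 3.43, 4.86, 7.32 and 4.84, a change of 1.03 ± 0.27 (log2, SE; adjusted p = 0.0368). Its old MANF values were spread widely, with replicate 3 the highest. Dcn and Lum lie 46984 bases apart on the same strand of chromosome 10 (chr10:97479609-97518143 and chr10:97565128-97572703), and Dcn stood far above Lum in RPKM in every library.

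Among other glycoproteins the pattern was less uniform. Sparc, a collagen-binding protein of remodelling matrix, had a change of 0.72 ± 0.29 (log2, SE; adjusted p = 0.10). It passed no threshold in the fit of all 16 libraries, although its groups did not overlap. Without old control replicate 4 Sparc was called, with an adjusted p of 0.0178 by limma. Fn1 was at 70.6, 64.4, 64.6 and 87.2 RPKM in young MANF livers and 77.9, 71.1, 157 and 70.4 in old MANF livers. Old MANF replicate 3 alone stood high while the other 3 lay within the young range, and the change of 0.31 ± 0.20 (log2, SE; adjusted p = 0.269) was not called. Ecm1, a secreted protein that holds latent transforming growth factor beta inactive in liver, had a change of only 0.09 (log2).

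Basement membrane genes rose in part. Nidogen 1 (Nid1), which links laminin to type IV collagen, was at 1.04, 1.24, 0.803 and 1.36 RPKM in young MANF and 2.08, 3.21, 3.35 and 3.15 in old MANF livers. Even old MANF replicate 1, the low one of its group, lay above every young MANF value, and the change was 1.09 ± 0.22 (log2, SE; adjusted p = 0.0139). The laminin chains Lamb1 and Lamc1 rose by less. Lamb1 was at 0.494, 0.571, 0.511 and 0.607 RPKM against 0.865, 0.77, 1.09 and 1.21, a change of 0.50 ± 0.14 (log2, SE; adjusted p = 0.0467), and Lamc1 was at 1.08, 1.23, 1.26 and 1.29 against 1.95, 1.86, 1.8 and 1.63, a change of 0.43 ± 0.11 (log2, SE; adjusted p = 0.0393). Both laminin calls were lost in most runs that left out a library, Lamb1 in 12 and Lamc1 in 10 of 16. The type IV collagen chains Col4a1 and Col4a2 had changes of 0.86 and 0.43 (log2), neither called, and the multiplexin collagens Col15a1 and Col18a1 had changes of 0.21 and 0.06.

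Interstitial collagens other than the fibrillar ones also rose in part. Col14a1, a fibril-associated collagen, was at 2.7, 4.3, 3.25 and 3.88 RPKM in young MANF and 7.39, 6.87, 6.98 and 8.04 in old MANF livers, a change of 0.97 ± 0.22 (log2, SE; adjusted p = 0.0249). Col6a3, the longest chain of the beaded type VI filament, was at 0.429, 0.314, 0.268 and 0.329 against 0.702, 0.814, 1.03 and 1.27, a change of 0.79 ± 0.20 (log2, SE; adjusted p = 0.0362). The groups did not overlap for either gene. The partner chains Col6a1 and Col6a2, neighbours on chromosome 10, had changes of similar size, 0.83 and 0.73 (log2), with adjusted p of 0.0613 and 0.065. Without old control replicate 4 both were called (limma, adjusted p = 0.0145 and 0.0350). Col6a2 was tested only with the help of the old MANF libraries.

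The fibrillar collagens, the classical products of activated stellate cells, were low in every group. Col1a1, a chain of type I collagen, was at 0.467, 0.347, 0.433 and 0.312 RPKM in young MANF and 1.06, 1.33, 1.23 and 2.1 in old MANF livers. No old value fell into the young range, but the change of 1.09 ± 0.44 (log2, SE; adjusted p = 0.101) was not called. Col1a2, the partner chain, was at 0.727, 0.534, 0.503 and 0.526 against 0.975, 1.29, 1.15 and 1.59, with a change of 0.70 ± 0.33 (log2, SE; adjusted p = 0.15), and Col3a1, which forms the reticular fibres, at 1.46, 1.37, 1.01 and 1.4 against 2.43, 2.75, 3.34 and 4.09, with a change of 1.0 ± 0.46 (log2, SE; adjusted p = 0.141). All 3 genes were separate between the groups and uncalled in the fit of all 16 libraries. Without old control replicate 4, which is in neither group, all 3 were called, with adjusted p of 0.00454, 0.0194 and 0.0156 by limma. In that fit Col1a1 was tested only with the help of the old MANF libraries. Col5a2, a chain of the collagen that nucleates fibrils, was at 0.16, 0.223, 0.183 and 0.159 RPKM in young MANF and 0.306, 2.97, 0.643 and 4.22 in old MANF livers. Replicates 2 and 4 stood far above replicates 1 and 3, with 582 and 869 reads against 64 and 113. The change was 1.53 ± 0.43 (log2, SE; adjusted p = 0.0459), the call held in 1 of 12 runs that left out a library and still tested the gene, and on whole reads recovered from the RPKM values the log2 change was 2.81 with an adjusted p of 0.0674. Col3a1 and Col5a2 lie 24614 bases apart on chromosome 1, on opposite strands.

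**Figure D2:**
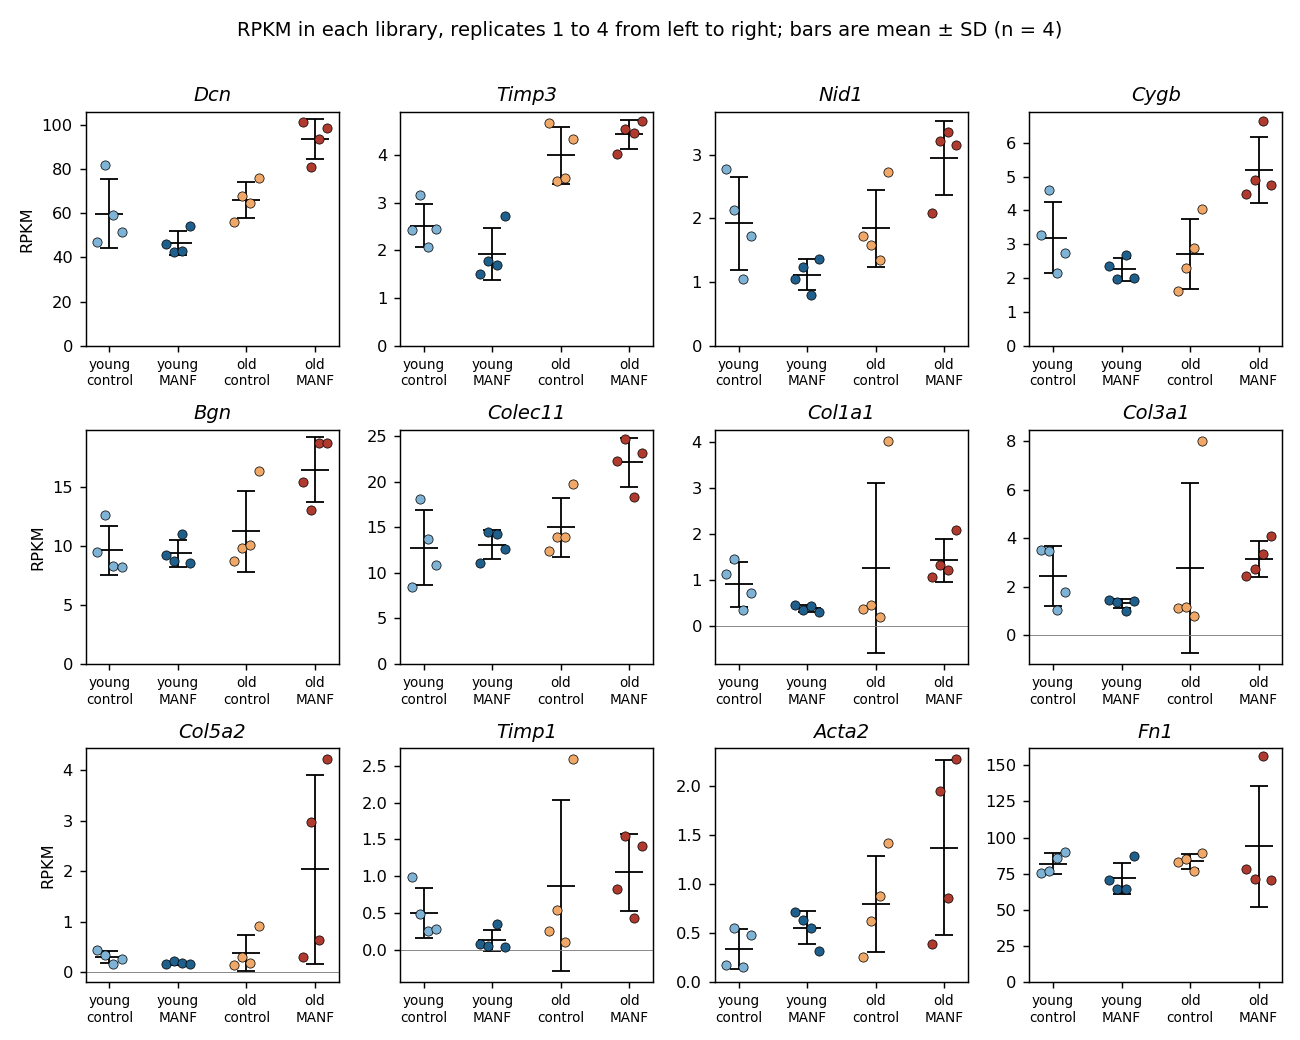
RPKM of 12 members in each library (points, replicates 1 to 4 from left to right in each group) with the group mean and SD (bars, n = 4). The old MANF points of Dcn, Nid1, Cygb and Bgn lie above all young MANF points, and old control replicate 4 is the highest point of its group for Col1a1 and Col3a1, at 4.02 and 8.01 RPKM.

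The inhibitors Timp3 and Timp2 rose, and Timp1 and both tested proteases were not called in the fit of all 16 libraries. Timp3, which is bound to the matrix, was at 1.51, 1.77, 1.69 and 2.72 RPKM in young MANF and 4.02, 4.55, 4.46 and 4.71 in old MANF livers, which did not overlap, with a change of 1.05 ± 0.14 (log2, SE; adjusted p = 0.00158). Timp2, which also takes part in the activation of Mmp2, was at 1.46, 1.11, 1.62 and 1.27 against 2.7, 2.2, 3.59 and 3.21, a change of 0.87 ± 0.19 (log2, SE; adjusted p = 0.0233). Timp1, the inhibitor most often induced in liver fibrosis, was at 0.0862, 0.0523, 0.349 and 0.0452 against 0.827, 1.54, 0.43 and 1.42. Its levels rest on 1 to 28 reads in these 8 libraries, and the change of 1.25 ± 0.41 (log2, SE; adjusted p = 0.0657) was not called. The gelatinase Mmp2 and the membrane-bound Mmp14 had changes of 0.52 and 0.76 (log2), with adjusted p of 0.141 and 0.0531. Without old control replicate 4, which is in neither group, Timp1 and Mmp14 were called (limma, adjusted p = 0.0068 and 0.00802). Mmp2 was not called there either (adjusted p = 0.0691 by limma), and Timp1 was tested only with the help of the old MANF libraries. An exon of Timp3 overlaps an exon of Syn3 on the opposite strand, and the level of Syn3 was at most 0.082 RPKM.

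The platelet-derived growth factor receptor Pdgfrb rose, and none of the contractile markers was called in the fit of all 16 libraries. Pdgfra, the other receptor, was tested only with the help of the old MANF libraries, so its call is given as a description. It was at 0.328, 0.236, 0.186 and 0.252 RPKM in young MANF and 0.49, 0.532, 1.06 and 0.813 in old MANF livers, a change of 0.68 ± 0.15 (log2, SE; adjusted p = 0.0233). Pdgfrb, the receptor typical of stellate cells and pericytes, was at 0.916, 0.661, 1.0 and 0.725 against 1.58, 1.81, 1.78 and 1.93, a change of 0.79 ± 0.20 (log2, SE; adjusted p = 0.0367), and the groups did not overlap for either receptor. The ligand gene Tgfb1 was at 0.372, 0.617, 1.13 and 0.549 against 1.46, 0.864, 1.27 and 1.16, overlapping through young MANF replicate 3, with a change of 0.56 ± 0.25 (log2, SE; adjusted p = 0.136). Tgfb1 was called without old control replicate 4 (limma, adjusted p = 0.0440). Its receptor Tgfbr2 and the hepatocyte mitogen Hgf, made by stellate cells, had changes of 0.39 and 0.61 (log2), not called.

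Acta2, alpha smooth muscle actin, was at 0.709, 0.626, 0.551 and 0.315 RPKM in young MANF and 0.387, 1.95, 0.858 and 2.27 in old MANF livers. The groups overlapped, old MANF replicates 2 and 4 being high, and the change was 0.70 ± 0.33 (log2, SE; adjusted p = 0.151). Tagln, an actin-binding protein of smooth muscle, was at 2.77, 2.45, 2.03 and 2.12 against 2.31, 4.8, 5.05 and 6.74, a change of 0.81 ± 0.29 (log2, SE; adjusted p = 0.0787). Desmin (Des), an intermediate filament protein of rodent stellate cells, was at 0.643, 0.458, 0.716 and 0.545 against 0.88, 0.782, 1.12 and 1.02, a change of 0.41 ± 0.16 (log2, SE; adjusted p = 0.092). The groups overlapped for Tagln and not for Des. Without old control replicate 4 Tagln was called (limma, adjusted p = 0.0483), and Acta2 and Des were not (0.118 and 0.0502). Tagln shares exonic sequence with Pcsk7 on the opposite strand, which was at 3.71 to 5.70 RPKM, and whether the counting used the strand is not given in the sources used here.

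All 3 stellate cell products rose. Cytoglobin (Cygb), an oxygen-binding globin of quiescent stellate cells, was at 2.37, 1.97, 2.68 and 2.01 RPKM in young MANF and 4.49, 4.91, 6.65 and 4.75 in old MANF livers, a change of 1.04 ± 0.22 (log2, SE; adjusted p = 0.0183). Colec11, a secreted collectin of innate immunity, was at 11.1, 14.4, 14.2 and 12.6 against 22.2, 24.7, 18.3 and 23.2, a change of 0.73 ± 0.19 (log2, SE; adjusted p = 0.0368). No library of the old group fell into the young range for these genes. Reelin (Reln), a secreted glycoprotein that marks stellate cells, was at 1.18, 1.13, 0.757 and 1.41 against 2.25, 1.41, 2.55 and 1.98, a change of 0.65 ± 0.16 (log2, SE; adjusted p = 0.0285). Old MANF replicate 2 lay just under the highest young value, so the groups overlapped. Of the 6 elastic fibre and crosslinking genes only Fbln5, a protein that organises elastic fibres, was tested. It held 24 to 148 reads per library, and its change of 0.48 (log2) was not called. Lox, the enzyme that crosslinks collagen and elastin, held 0 to 25 reads per library over all 16, with the 25 in old control replicate 4.

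Markers of other cells also differed in the same comparison, where 5.85% of all tested genes rose. Called higher were 3 of 6 tested T and NK cell markers (Cd8a, Nkg7 and Klrd1), 1 of 4 recruited macrophage markers (Trem2), 1 of 5 B and plasma cell markers (Jchain), 1 of 13 sinusoidal endothelium markers (Cdh5) and none of 11 Kupffer cell markers. Cd8a, Klrd1 and Trem2 were tested only with the help of the old MANF libraries. Without old control replicate 4, 7 of the 11 Kupffer cell markers were called higher, with a median log2 change of 1.31. So were 2 of the 13 sinusoidal endothelium markers, beside 15.4% of all tested genes. Between young MANF and old MANF livers the summed Kupffer cell markers ranged over 41.0-146 RPKM against 158-311, the recruited macrophage markers over 11.9-26.9 against 56.6-103, the T and NK cell markers over 0.908-1.28 against 4.00-6.62, and the cholangiocyte markers over 16.2-21.7 against 27.4-81.9, and none of these overlapped. Endothelial marker sums overlapped, at 31.9 to 60.9 against 39.5 to 96.3. Portal fibroblast markers, another source of collagen, summed to only 2.72 to 4.48 against 3.96 to 5.15 over 8 genes, mesothelial markers to at most 1.12, and smooth muscle markers to 14.2 to 24.2 against 25.2 to 28.4. In the old MANF libraries the mesothelial genes Msln, Upk1b and Lrrn4 and the portal fibroblast gene Igfbp6 were listed at 0. The part of these cell types in the member results was not tested.

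The size of these changes also depended on how libraries were scaled. In the RPKM as deposited, 625 genes rose and 77 fell over the whole table in this comparison, whereas 142 rose and 272 fell after scaling each library to its median, and 76 rose and 171 fell after quantile normalization. The median of all genes moved from 0.18 to -0.03 under both scalings. Relative to that shift the members stayed high: their median was 0.54 and 0.48. After median scaling 5 members were called, all higher, beside 1.33% of all tested genes, and after quantile normalization 4, all higher, beside 0.712%. The 5 include Pdgfra, tested only with the help of the old MANF libraries, and the 4 do not.

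**Figure D3:**
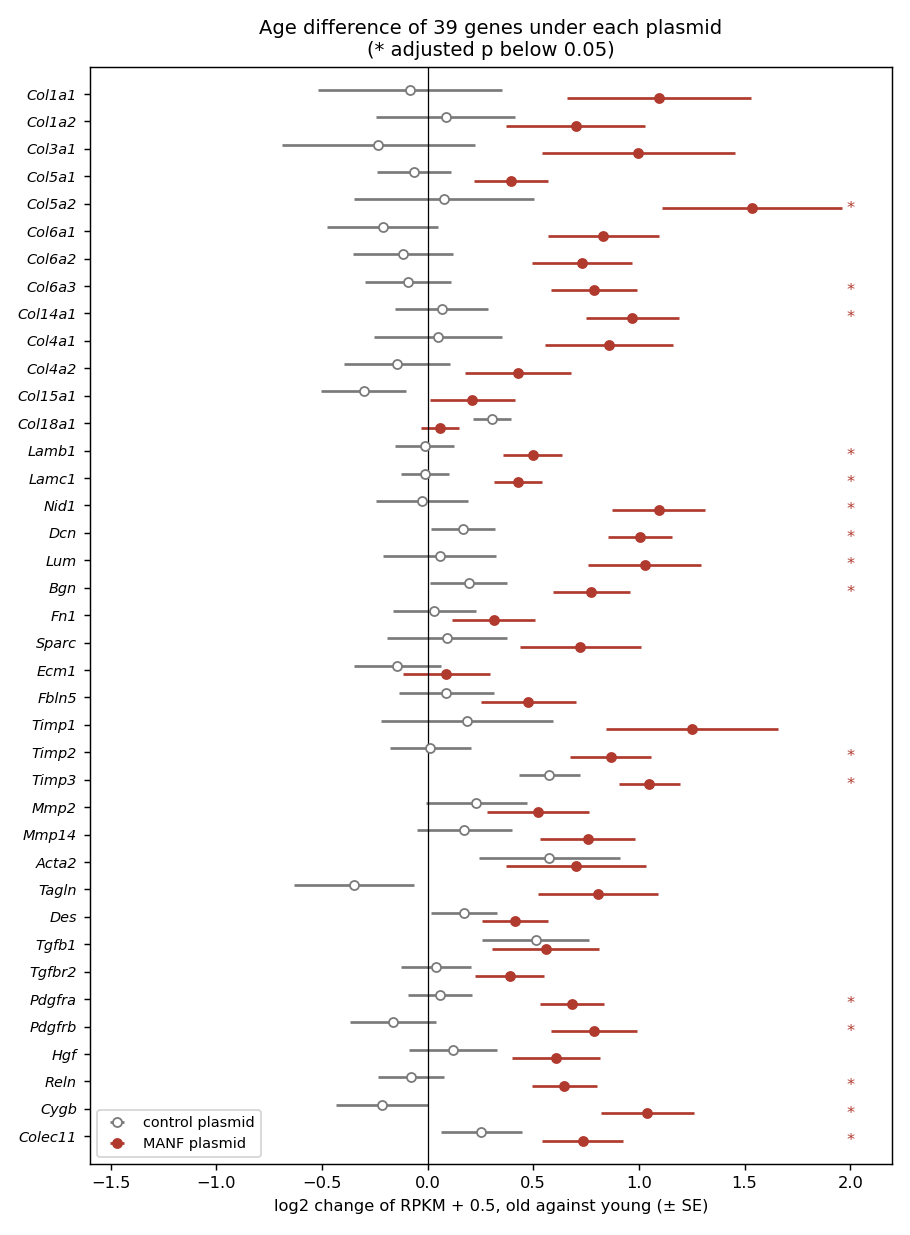
Log2 change of RPKM + 0.5 from young to old livers for the 39 tested members (rows), after the control plasmid (open grey points) and after the MANF plasmid (red points), with bars of ± 1 SE; stars mark the 16 members with an adjusted p below 0.05 after the MANF plasmid. The red points lie right of 0 for all 39 members, and the grey points for 23.

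After the control plasmid, none of the 39 tested members was called for age by limma, nor by limma-voom on reads recovered from the RPKM values, beside 1.25% of all tested genes, and 2 had an unadjusted p below 0.05, against 14.9% of all tested genes. The median log2 change was 0.05, with 23 members above 0. Timp3 came closest, at 2.43, 3.16, 2.06 and 2.44 RPKM in young control and 4.67, 3.46, 3.52 and 4.34 in old control livers. It was the one member whose old libraries all lay above the young ones, in a comparison where that held for 8.13% of all tested genes, and its change was 0.58 ± 0.14 (log2, SE; adjusted p = 0.066). Dcn, by contrast, was at 46.8, 81.9, 59 and 51.4 against 56, 67.9, 64.5 and 75.8, which overlapped, with a change of 0.17 ± 0.15 (log2, SE; adjusted p = 0.677). Without old control replicate 4 the median of the members was -0.14, and again none was called; without young MANF replicate 4, which enters only through the shared spread, 1 was. Over the whole table the split of 96 higher and 37 lower genes became 57 and 61 under median scaling and 67 and 82 under quantile normalization, and the members' median became -0.03 and -0.06.

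Among the old controls, the fibrillar collagens were highest in a single liver. Col1a1 was at 1.13, 1.47, 0.349 and 0.719 RPKM in young controls and 0.374, 0.453, 0.20 and 4.02 in old controls, Col1a2 at 0.836, 1.42, 0.409 and 0.728 and 0.428, 0.683, 0.45 and 2.99, and Col3a1 at 3.51, 3.46, 1.04 and 1.78 and 1.11, 1.15, 0.794 and 8.01. For each of the 3 genes replicate 4 was high while the other 3 old controls lay at or below the middle of the young range. Their changes of -0.08, 0.09 and -0.23 (log2) carried standard errors of 0.44, 0.33 and 0.46. Timp1 was at 0.991, 0.491, 0.262 and 0.28 RPKM in young and 0.256, 0.54, 0.106 and 2.59 in old controls, and Tgfb1 at 0.724, 0.616, 0.477 and 0.384 and 0.866, 0.523, 0.773 and 2.24, again with replicate 4 the highest. Acta2 was at 0.173, 0.551, 0.152 and 0.474 against 0.255, 0.62, 0.87 and 1.42, Tagln at 3.14, 3.45, 1.6 and 4.3 against 1.56, 1.95, 2.15 and 3.63, and Des at 0.539, 0.653, 0.392 and 0.53 against 0.448, 0.422, 0.85 and 1.01. These overlapped, and their adjusted p values were 0.463, 0.633 and 0.679. Fn1 was steady, at 75.2, 76.8, 85.8 and 89.9 against 83.1, 85.3, 76.8 and 89.2 RPKM.

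Other members showed the same overlap between young and old controls. Nid1 was at 2.77, 2.14, 1.05 and 1.73 RPKM in young and 1.72, 1.58, 1.35 and 2.72 in old controls, Cygb at 3.27, 4.6, 2.16 and 2.75 and 1.62, 2.28, 2.9 and 4.05, and Bgn at 9.43, 12.6, 8.27 and 8.17 and 8.75, 9.82, 10.1 and 16.3. Old control replicate 4 was the highest old control for all 3. Colec11 was at 8.43, 18.1, 13.7 and 10.8 and 12.3, 13.9, 13.9 and 19.7, Lum at 2.55, 4.73, 2.77 and 2.8 and 2.61, 3.05, 2.35 and 5.89, Col14a1 at 3.51, 6.74, 4.49 and 4.04 and 4.25, 4.36, 3.41 and 8.3, and Timp2 at 1.81, 2.85, 1.56 and 2.05 and 1.37, 1.88, 2.13 and 3.09. Young control replicate 2 was the highest young control for each of these 4 genes, and for 22 of the 39 tested members. Col6a3 was at 0.802, 0.724, 0.386 and 0.453 and 0.239, 0.361, 0.534 and 1.07, Col5a2 at 0.445, 0.335, 0.17 and 0.264 and 0.142, 0.30, 0.186 and 0.918, Lamb1 at 0.568, 0.83, 0.536 and 0.461 and 0.399, 0.479, 0.753 and 0.733, and Lamc1 at 1.82, 1.55, 1.27 and 1.4 and 1.29, 1.3, 1.42 and 1.99 RPKM. Pdgfra was at 0.43, 0.516, 0.375 and 0.342 and 0.272, 0.431, 0.52 and 0.612, Pdgfrb at 1.49, 1.46, 0.679 and 0.889 and 0.539, 0.797, 0.865 and 1.7, and Reln at 1.31, 1.9, 1.73 and 1.28 and 1.36, 1.55, 1.56 and 1.28, where replicate 4 was the lowest of the old controls. Some markers of other cells did differ by age after the control plasmid, where 0.899% of all tested genes rose: 5 of 13 tested sinusoidal endothelium markers rose, the lowest adjusted p being 0.00938, and 3 of 6 T and NK cell markers (Cd8a, Cd8b1 and Nkg7).

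Averaged over both plasmids, 7 of the 33 members that reached the level for testing without old MANF rose with age and none fell, beside 13.3% of the genes that reached it in the same way. With Pdgfra, which did not, 8 of 39 rose, beside 14.1% of all tested genes. They were Timp3, at a log2 change of 0.81 and an adjusted p of 0.000309, Dcn at 0.59 and 0.00351, Bgn, Colec11, Nid1, Pdgfra, Col14a1 and Timp2. The median of the members was 0.38, beside 0.11 over all tested genes. In the same comparison 11 of 13 sinusoidal endothelium markers and 7 of 11 Kupffer cell markers were called higher. The medians of these 2 lists were 0.69 and 1.30 (log2). Timp3 was the one member for which all 8 old libraries lay above all 8 young libraries, as held for 2.01% of all tested genes. The count was 4 and 3 without young control replicates 3 and 4, and 5 and 4 without old MANF replicates 3 and 4, while Timp3 and Dcn passed in every run. In the same runs 1021, 851, 1325 and 1164 genes rose over the whole table, against 1501 with all 16 libraries. Without old control replicate 4 the member count was 6, beside 12.3% of all tested genes. These 6 include Pdgfra. Of the 31 members that then reached the level for testing without old MANF, 5 were called, or 16.1%. The member count was 2 after median scaling (6.28% of all tested genes) and 3 after quantile normalization (4.55%). Under these scalings the split over the whole table went from 1501 higher and 163 lower to 671 and 825 and to 486 and 711.

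Whether the age difference itself differed between the plasmids was tested as an interaction. No member passed with limma or with limma-voom on recovered reads, nor did any other gene with limma (0% of all tested genes), and the lowest adjusted p among the members was 0.532, for Dcn and Cygb. The age change was larger after the MANF plasmid for 32 of the 33 members that reached the level for testing without old MANF, with a median difference of 0.58 (log2), beside 0.12 over the genes that reached it in the same way, and 15 of them had an unadjusted p below 0.05, against 8.34% of those genes (18 of all 39, against 8.37%). Cygb had a difference of 1.26 ± 0.31 (SE) and Dcn 0.84 ± 0.21. Col18a1 was the exception, at -0.25 ± 0.13. Without old control replicate 4, a library singled out after its values were seen, again no gene was called by limma. The lowest adjusted p among the members was then 0.0650, for Col1a1, Col3a1, Cygb and Pdgfrb. Of the 31 members that then reached the level for testing without old MANF, 23 had an unadjusted p below 0.05 by limma. Their median difference was 0.77 (log2), and 1778 of all 10586 tested genes had such a p. The calls made after 1 plasmid and not after the other therefore do not show a difference between the plasmids.

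Within the old mice, MANF and control livers were compared directly, a comparison that shares its old MANF libraries with the age comparison above. No member was called by limma, nor by limma-voom on recovered reads, beside 0.103% of all tested genes, although 31 of the 33 that reached the level for testing without old MANF lay above 0 with a median log2 change of 0.47. Of these, 13 had an unadjusted p below 0.05, against 9.65% of the genes that reached it in the same way (17 of all 39, against 9.7%). All 4 old MANF libraries lay above all 4 old controls for Dcn, Cygb and Lamb1, which is 7.69% of the tested members, against 3.5% of all tested genes. Cygb was at 1.62, 2.28, 2.9 and 4.05 RPKM in old control and 4.49, 4.91, 6.65 and 4.75 in old MANF livers, a change of 0.87 ± 0.22 (log2, SE; adjusted p = 0.142). Dcn was at 56, 67.9, 64.5 and 75.8 against 101, 80.8, 93.9 and 98.5, a change of 0.50 ± 0.15 (log2, SE; adjusted p = 0.202). Timp3, which differed with age, overlapped between the plasmids in old mice, with a change of 0.14 ± 0.14 (log2, SE; adjusted p = 0.865).

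Leaving out old control replicate 4 altered this comparison. Without it, 9 of 38 tested members were called and all 9 were higher, beside 1.02% of all tested genes that rose, and the members' median was 0.69. The 9 were Col3a1, at a log2 change of 1.25 and an adjusted p of 0.0416, Col1a1 at 1.18 and 0.0307, Col6a1 at 1.1 and 0.0316, Cygb at 1.05 and 0.0273, Pdgfrb at 0.89 and 0.0273, Sparc at 0.89 and 0.0467, Col14a1 at 0.80 and 0.0428, Bgn at 0.74 and 0.0362, and Col6a3 at 0.73 and 0.0487. They include type I, III, VI and XIV collagen chains. With that library left out, Col1a1 and Col6a3 reached the level for testing only with the help of the old MANF libraries, as 7 of the 38 members did; over the other 31 members 7 were called and the median was 0.58. With that library in the fit the corresponding changes of Col1a1 and Col3a1 were 0.57 ± 0.44 and 0.63 ± 0.46 (SE). All 4 old MANF libraries lay above the other 3 old controls for 27 of 39 members, or 69.2%, against 16.8% of all tested genes, and for 21 of those 31. The shares of 1.02% and 16.8% were not limited to genes that reached the level for testing without old MANF, as the 31 members were. The 27 include Col5a1, Col5a2, Col6a2 and Mmp2, tested only with the help of the old MANF libraries. The library left out was the highest old control for 34 of the 39 members, against 53.1% of all tested genes. Leaving it out therefore favoured the members, and neither the 9 calls nor these shares weigh them evenly against all genes. That library's Kupffer and recruited macrophage marker sums, given above, were 739 and 397 RPKM.

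**Figure D4:**
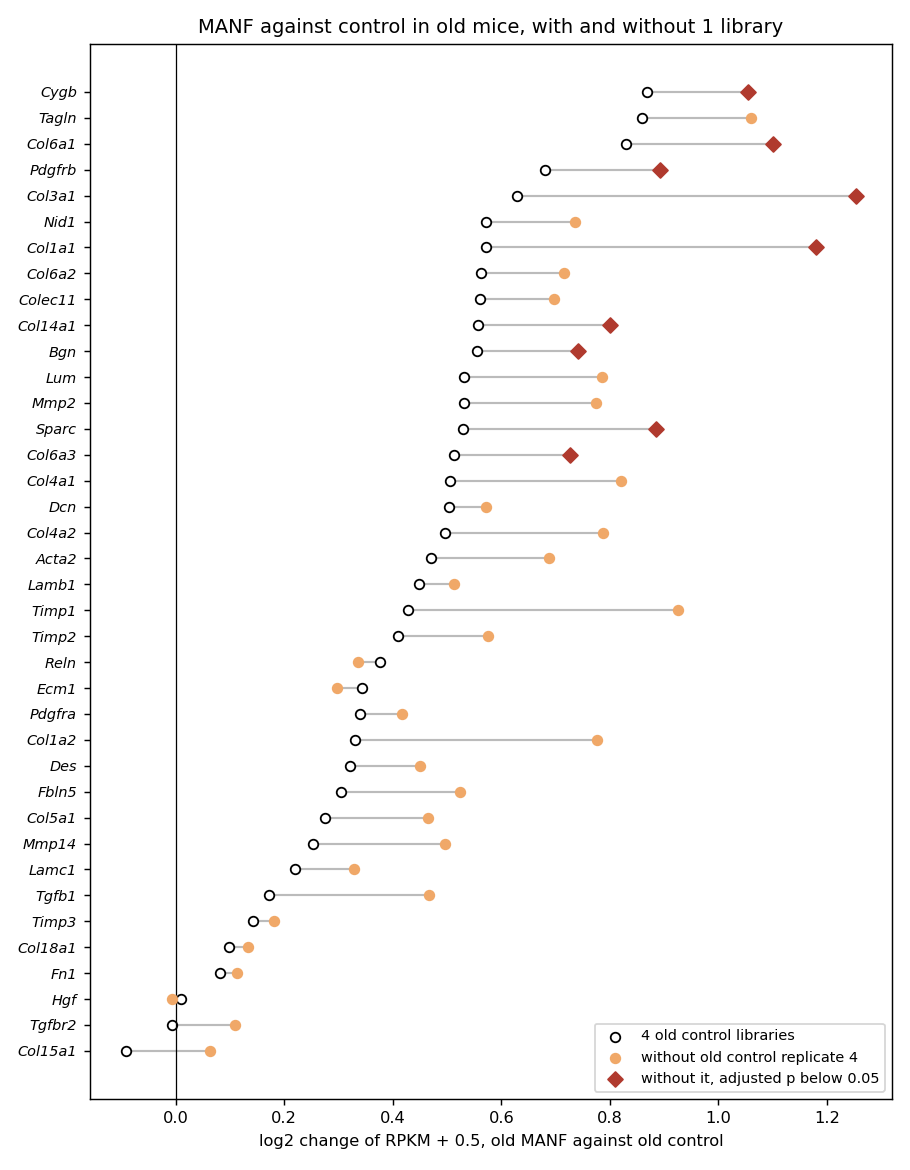
Log2 change of RPKM + 0.5 from old control to old MANF livers for the 38 members tested in both fits (rows), with all 4 old controls (open points) and without old control replicate 4 (filled points; red diamonds mark the 9 members with an adjusted p below 0.05). Leaving out the library moved Col1a1 from 0.57 to 1.18 and Col3a1 from 0.63 to 1.25.

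In young mice the MANF plasmid went with lower rather than higher values, none of them called. No member passed with limma or with limma-voom on recovered reads, beside 0.0187% of all tested genes, and 9 had an unadjusted p below 0.05, against 14.9% of all tested genes. Of the 39 members, 32 lay below 0, with a median log2 change of -0.28, beside -0.10 over all tested genes. The whole table leaned the same way, with only 3426 of all 10677 tested genes above 0. After median scaling and quantile normalization the median of all genes was 0.009 and 0.003. The members' medians under these scalings are not given here. Mmp14, Pdgfra and Hgf were lower in all 4 young MANF than in all 4 young control livers, which is 7.69% of the tested members, against 6.59% of all tested genes. Hgf was at 0.992, 0.842, 0.782 and 0.74 RPKM in young control and 0.554, 0.653, 0.108 and 0.659 in young MANF livers, with replicate 3 far below the others. Col18a1 went the other way, at 50.8, 67, 59.4 and 64.6 against 76.5, 72.8, 81.5 and 75.5 without overlap, as held for 2.29% of all tested genes, a change of 0.34 ± 0.09 (log2, SE; adjusted p = 0.19). Averaged over both ages, none of the members was called for the plasmid by either tool, beside 1.29% of all tested genes, and 4 had an unadjusted p below 0.05, against 14.1%; the members' median was 0.10.

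Collagens and laminins are built from several chains, so the ratio of partner chains was followed within each library for 6 pairs and tested by exact permutation within strata, with Benjamini-Hochberg adjustment over 12 tests. Col4a1 and Col4a2, which share a bidirectional start on chromosome 8 where their annotations overlap by 22 bases, had a ratio of 1.57 ± 0.278 (SD, n = 4) with the control plasmid and 1.31 ± 0.213 with MANF in young livers, and of 1.91 ± 0.21 and 1.8 ± 0.22 in old livers. The old livers were higher by 0.38 (log2), with an exact permutation p of 0.00408 and an adjusted p of 0.0490. This call was lost in 12 of the 16 runs that left out a library and when 0.5 RPKM was added before taking the ratio. No other ratio differed by age or plasmid after adjustment. Col5a1 over Col5a2 was 2.42 ± 0.441 in young MANF and 0.906 ± 0.928 in old MANF livers, with an age difference over both plasmids of -1.12 (log2) and an adjusted p of 0.211 by the exact permutation test. Col1a1 over Col1a2 ranged from 0.445 to 1.35 over the 16 libraries, and Col6a1 over Col6a2 from 2.68 to 5.03.

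**Figure D5:**
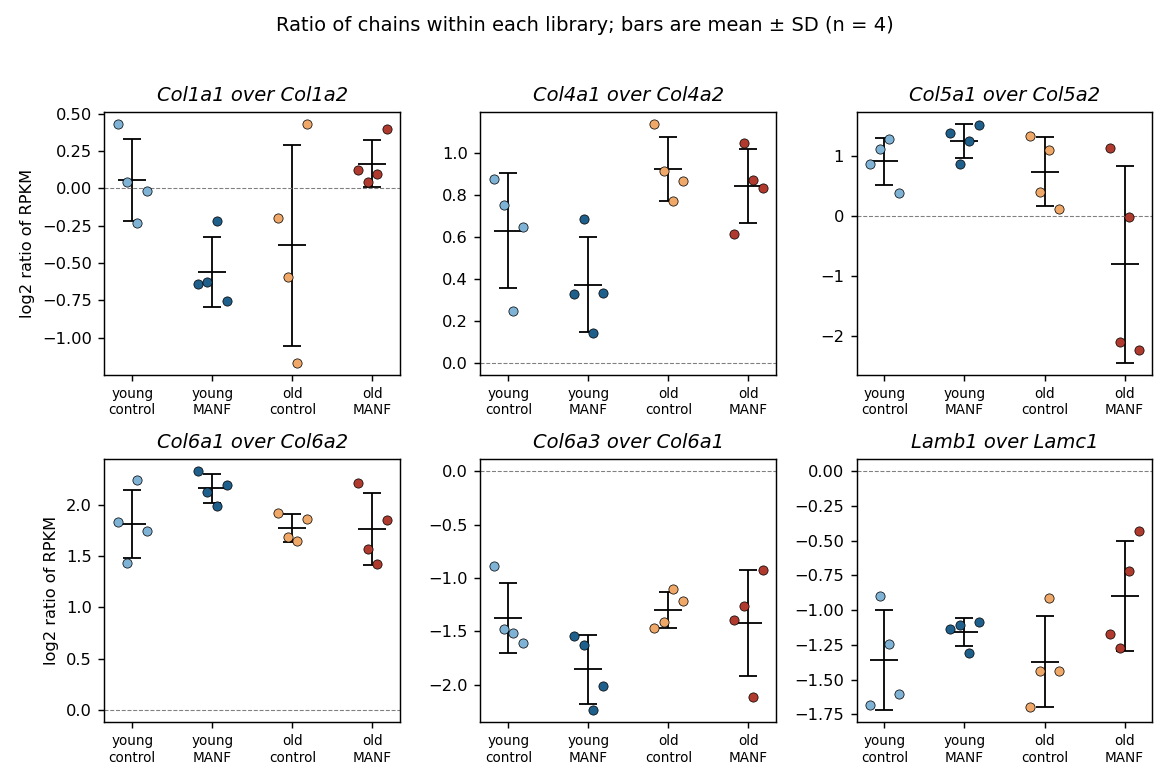
Log2 ratio of RPKM of 6 pairs of partner chains in each library (points, replicates 1 to 4 from left to right) with the group mean and SD (bars, n = 4); the dashed line marks equal levels. Col4a1 over Col4a2 is above 1 in all 16 libraries, from 1.1 to 2.2 on the linear scale, and higher in old livers; the old MANF points of Col5a1 over Col5a2 are spread widely.

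Other genes of the same cells and pathways were counted from separate lists, in the comparison of old with young livers after the MANF plasmid, where 5.85% of all tested genes rose. In these lists Ngfr, Pmepa1, Thbs2 and Matn2 reached the level for testing only with the help of the old MANF libraries, so their calls are given as a description and the counts are given without such genes first, beside 5.61% of the genes that reached it without them. Of 19 other stellate cell markers 6 rose and none fell, with a median log2 change of 0.44, and with Ngfr 7 of 20. Ngfr, the low-affinity neurotrophin receptor, was at 0.459 ± 0.0704 RPKM (SD, n = 4) in young MANF and 1.2 ± 0.19 in old MANF livers, with an adjusted p of 0.0109, and it was also higher in old MANF than in old control livers, where it was at 0.390 ± 0.229, with an adjusted p of 0.0400. Ednra, the endothelin A receptor, was at 0.364 ± 0.0370 against 0.896 ± 0.106, and Bmp5, a bone morphogenetic protein, at 1.39 ± 0.349 against 2.45 ± 0.392. Lrat, the enzyme that makes retinyl esters, was among the 6.

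Of 12 genes of transforming growth factor beta and platelet-derived growth factor signalling that reached the level without old MANF, 4 rose and none fell, with a median of 0.44 (log2), and of all 15 tested 5 rose. Tgfbr1, a receptor kinase, was at 3.25 ± 0.991 RPKM in young MANF and 5.38 ± 0.134 in old MANF livers, with an adjusted p of 0.0256. The pathway's feedback inhibitor Pmepa1 was at 0.290 ± 0.0550 against 0.685 ± 0.104, and Tgfbi, a secreted protein induced by the ligand, at 9.23 ± 0.219 against 17.5 ± 3.16. Skil and Tgif1, which repress Smad-driven transcription, were the other two. Of 17 other matrix proteins 2 rose and none fell, and of all 19 tested 4 rose: Efemp1, at 2.67 ± 0.599 against 6.82 ± 2.18 RPKM, Thbs2 at 0.192 ± 0.0583 against 0.620 ± 0.131, Ogn at 0.381 ± 0.170 against 0.843 ± 0.0892, and Matn2. Of 12 collagen processing enzymes (13 tested) only P4ha1, a prolyl hydroxylase subunit, rose, at 0.926 ± 0.217 against 2.04 ± 0.416, and of 5 genes of matrix breakdown (9 tested) only the cysteine protease Ctsk rose, at 0.384 ± 0.0894 against 0.926 ± 0.321. After the control plasmid none of these 5 lists held a called member.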

How the data were processed

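Liver RNA of 16 mice was prepared with the TruSeq Stranded mRNA kit, per the labels' protocols. Per the submitters' processing notes, STAR 2.4.2a, HTSeq and the mm10 build were used; the annotation and the strand setting of the counting are not given in the sources used here. The authors deposited 1 table of RPKM values (24010 entries, 16 libraries), used as deposited. Groups came from the titles, age and treatment labels.

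Values were tested as log2(RPKM + 0.5) with limma 3.58.1 (trended prior, R 4.3.3), in 1 fit of 16 libraries and 4 group means, over the 10677 genes at 0.5 RPKM or more in at least 4 libraries. The Benjamini-Hochberg adjustment ran over all tested genes, with calls at adjusted values under 0.05. Fold changes on this scale understate the change of low genes. For 17343 of 17346 genes whole reads were recovered from the spacing of the RPKM values (99.98% of values within 0.001 reads, widened with depth to at most 0.2), which gave the depths and a limma-voom alternative. Differences in the ratio of chains were tested by exact two-sided permutation within strata (4900 permutations, smallest p 0.000408). The labels do not say more of the animals, so p values measure the spread between these samples. Same-numbered replicates did not deviate together and were not paired.

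The 46 members and all lists were chosen with earlier results of these data known. Libraries are shown one by one for every member called in a comparison and for 12 further members named in the design, and of other lists up to 3 called genes with the smallest p are given with values; Matn2, Lrat, Skil and Tgif1 are named besides, Sparc, Hgf, Col18a1 and other members as part of the 46. Alternatives were other pseudocounts, filters, scalings, limma-voom, fits of the compared groups alone, a replicate block and leaving out each library. The fitting and recovery steps were tested on simulated data.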

Additional observations from a re-analysis of the deposited data

Results flagged for a closer look

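In 17 of 184 groups of 4 libraries (46 members in 4 groups) 1 library lay far from the other 3. With independent, normally distributed values the rule flags about 1 group in 20. The RPKM were not transformed here and all groups come from the same 16 libraries, so that rate need not hold. Old control replicate 4 was the high one for Col1a1 at 4.02 RPKM (other 3 at 0.20 to 0.453), Col3a1 at 8.01 (0.794 to 1.15), Col5a1 at 0.994 (0.359 to 0.398), Sparc at 18.4 (6.20 to 7.35) and Fbn1 at 0.484 (0.112 to 0.143). The macrophage marker sums of that library were also high, at 739 and 397 RPKM, and their part in these values was not tested.

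Young MANF replicate 3 was the low one for Col15a1 at 0.505 RPKM (0.796 to 0.863), Thbs1 at 0.0425 (0.0661 to 0.0693) and Hgf at 0.108 (0.554 to 0.659), and the high one for Timp1 at 0.349 (0.0452 to 0.0862). In the same group, replicate 1 was high for Col1a2 at 0.727 (0.503 to 0.534) and replicate 2 for Fbn1 at 0.149 (0.107 to 0.112). Old MANF replicate 3 was high for Fn1 at 157 RPKM (70.4 to 77.9) and Mmp14 at 8.23 (4.04 to 4.29), and old MANF replicate 1 was low for Nid1 at 2.08 (3.15 to 3.35). Young control replicate 2 was high for Lum at 4.73 (2.55 to 2.80) and Mmp2 at 0.582 (0.236 to 0.261), and young control replicate 3 was low for Loxl1 at 0.141 (0.364 to 0.40).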

How the results depend on the processing

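No result changed direction under any alternative in which it was called. The 16 member calls between old and young livers after the MANF plasmid, where 625 of all 10677 tested genes rose, changed with the setting. They became 9 with no filter on low values (511 of 17346 genes rose), 5 after median scaling (142 of 10677) and 4 after quantile normalization (76). With a replicate block they became 10 (387), and 25 when only the compared groups were fitted (999). Leaving out 1 library gave 4 to 26 (168 to 1626 genes). Leaving out old control replicate 4 with young MANF replicate 3 gave 25 (1268 of 10571). These counts were not limited to members that met the filter outside the old MANF libraries. The 8 calls averaged over both plasmids, where 1501 genes rose over the whole table, became 2 after median scaling (671 genes) and 3 after quantile normalization (486). They became 3 to 11 when 1 library was left out (851 to 1666 genes). For the control plasmid the count was 0 to 1 when 1 library was left out. For MANF against control in old mice it was 0 to 9, the 9 arising without old control replicate 4, and 10 without that library and young MANF replicate 3. In the fits that gave 9 and 10, 108 of 10586 and 271 of 10571 genes rose. The age difference of Col4a1 over Col4a2 was 0.3131 (log2) when 0.5 RPKM was added, with an adjusted p of 0.0735, and 0.3183 to 0.4344 when 1 library was left out, with adjusted p of 0.0196 to 0.108. The cause of these shifts was not tested, except that a scaling moves every gene of a library and a fit of fewer libraries uses another spread. The members' median for age after the control plasmid ran from -0.1426 to 0.1501 when 1 library was left out, on both sides of 0; after the MANF plasmid it ran from 0.6358 to 0.8224. Counting only members that met the filter outside the old MANF libraries, chosen after seeing the data, gave 14 and 7 calls for age after the MANF plasmid and over both plasmids. Replicate numbers share only a label: deviations of 24 same-numbered pairs correlated at -0.319 to 0.21 (mean 0, other pairs 0.002), and 3 of 16 libraries correlated best with their own number. The block left the counts of the other comparisons within 1.5 times. No fit of the compared groups alone was possible for the averages over plasmids or ages or for the interaction. By the highest count in any library, depth was lowest for Fbln1, Lox, Loxl1 and Timp1, at 1 to 11, 0 to 25, 7 to 40 and 1 to 51 reads per library.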

Other observations

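Within the old MANF group different members were high in different livers. Replicates 2 and 4 held the high values of Col5a2, at 2.97 and 4.22 RPKM against 0.306 and 0.643 in replicates 1 and 3, and of Acta2, at 1.95 and 2.27 against 0.387 and 0.858. Replicate 3 held the highest values of the type VI collagen chains Col6a1, at 4.46 RPKM against 1.84 to 2.42, and Col6a2, at 1.67 against 0.397 to 0.671, and of Fn1, Mmp14 and Lum. Its cholangiocyte marker sum was 81.9 RPKM, against 27.4 to 36.6 in the other 3. Matrix breakdown genes outside the 46 summed to 47.4 RPKM in replicate 2 and to 23.0 to 25.8 in the other 3. These livers were chosen after their values were seen, and no test was made.

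Among the young controls, replicate 1 had the highest level of Thbs1, a matricellular glycoprotein that activates latent transforming growth factor beta, at 0.833 RPKM against 0.0409 to 0.153, and a cholangiocyte marker sum of 122 RPKM against 18.8 to 59.7. Young control replicate 3 was the lowest of its group for 23 of the 39 tested members, and old control replicate 1 likewise for 23 in its own group.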
